A study of Rattus norvegicus with 6 samples.

Results

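Pre-mRNA splicing was examined through 63 genes of the splicing machinery in purified rat beta cells, of 14217 genes that the array names. A gene entered when a probe set (a group of short probes against 1 transcript) carried a single symbol of the SRSF, TRA2, HNRNP, SNRP, SF3A, SF3B, U2AF or PRPF series, and it was represented by its brightest probe set over the 6 arrays. The 63 genes, with 104 probe sets in all, comprised 13 SR proteins (SRSF and TRA2), 17 hnRNPs, 10 core snRNP proteins (SNRP), 12 U2 factors (SF3A, SF3B and U2AF) and 11 PRPF proteins. One of the 13 SR entries, SRSF7-PS4, carries the symbol of a pseudogene of SRSF7, whose signal cannot be told apart from that of its parent gene. Another 8 probe sets of these series carried several symbols and were left out. No filter on low values was applied, so that all 63 genes were tested, and for 2 of them, SRSF3 and SNRPN, the probe set used was dimmer than the median probe set of the array.

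Splicing removes introns from pre-mRNA. Small nuclear ribonucleoproteins (snRNPs), each an RNA with a ring of Sm proteins and further specific proteins, recognise the splice sites and assemble into the spliceosome, in which U2 factors mark the branch site and the 3′ splice site and PRPF proteins build and activate the U4/U6.U5 particle. The core snRNP proteins as grouped here, the whole SNRP series, include Sm proteins and also specific ones such as SNRPA. SR proteins, with a domain rich in arginine and serine, mostly promote the use of nearby exons, and hnRNPs, which coat nascent transcripts, often oppose them. SR proteins and several hnRNPs are known to limit their own mRNA through alternatively spliced exons that mark the transcript for decay, which these arrays do not measure.

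Beta cells were FACS-purified (92 ± 3% insulin-positive by the labels) from male Wistar rats of 10 weeks that had fasted for 24 h or had been fed ad libitum. Each group had 3 isolates, each from a pool of 5 rats and hybridized on 1 array, so that a value is an average over the rats and cells of a pool. The linear intensities deposited by the authors were raised to a floor of 3.27 (the 10th percentile of all values), and log2 values were compared with limma's moderated test, two-sided. Changes are log2 ratios of fasted over fed. A gene was called lower or higher where it differed by 1.5-fold or more with an unadjusted p under 0.05. Both thresholds were taken from the study, but the test was not, since the authors analysed their arrays with dChip. The study reports a much smaller share of changed transcripts, nearly all of them lower. The calls given here are therefore not equivalent to the published ones. At these thresholds 2616 of 31042 probe sets were lower and 737 higher. No probe set of the array passed an adjusted p under 0.05 in this fit. Without adjustment 3612 probe sets were lower and 1010 higher at p under 0.05. Precision is set by the few arrays, and an exact permutation test of 3 against 3 cannot go below p = 0.10.

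The signal of the arrays differed before any gene was considered. Median intensity was 17.1, 17.8 and 21 on fasted replicates 1, 2 and 3 and 20.2 to 21.8 on the arrays of fed rats. Fasted replicate 3 thus lay among the fed arrays. The median log2 change over all 31042 probe sets was -0.20, against -0.02 with quantile-normalized arrays and 0.01 with arrays scaled to their 75th percentile (below, the quantile and 75th-percentile scalings). Changes are therefore also given relative to that median. Fasted replicate 1 stood apart, with the lowest median intensity (17.1), the highest 3′ to 5′ signal ratio of the GAPDH control probe sets (1.22, against 0.972 to 1.16 on the other arrays) and of the beta-actin ones (2.40, against 1.76 to 2.05), and results without it are given below. Beta cell markers were bright (7 of 11 measured, summed intensity 22730 to 24170 in fasted and 23600 to 24770 in fed rats), but so were digestive enzymes of acinar cells, of which all 14 measured had a mean intensity of at least 3084 (sum 65290 to 74830 in fasted and 70510 to 76380 in fed rats, 0 of 14 called). Mean intensities reached 6861 among the beta cell and 6926 among the acinar markers, while the brightest probe set of each array measured 7000 to 7629. For digestive enzymes on their human arrays the authors propose probe saturation. A difference between the groups could therefore be missed in lists this bright. Of 4 duct cell markers 1 was called, KRT19, which was higher after fasting with intensities of 88.9, 80.3 and 88 in fasted rats, against 56.8, 46.4 and 55.6 in fed rats, and the list summed to 430 to 536 in fasted and 353 to 403 in fed rats. Short of 1.5-fold, KRT7 of this list (log2 change 0.37, unadjusted p = 0.0329 from limma) and the stellate marker ACTA2 (0.50, unadjusted p = 0.0348 from limma) were also higher on every fasted array. The other duct and stellate markers overlapped between the groups. Of the markers of alpha, delta and PP, endothelial, immune, stellate and red blood cells none was called and the summed levels of the groups overlapped in each list. Fed replicate 2 differed from fed replicates 1 and 3 in several of them and widened the fed range. It measured 7629 for GCG (against 4426 and 3532), 4270 for PPY (2567 and 2057), 103 for CD74 (31.2 and 17.1) and 95.6 for DCN (26.8 and 9.31). For HHEX and PDGFRB it was the lowest fed array. Results without fed replicate 2 are also given below. The part of other cells in the results below was not tested. In such bulk samples fewer cells of a type and less RNA per cell cannot be told apart.

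Among the 63 genes the SR proteins carried most of the calls. At the thresholds 6 of 63 genes were lower after fasting (9.52%) and 0 were higher, against 9.51% lower and 2.29% higher over the brightest probe sets of all named genes (8.43% and 2.37% over all probe sets), so that the share of the 63 genes lay at the background. The 6 genes were 4 SR proteins (SRSF1, SRSF10, TRA2A and TRA2B), 1 hnRNP (HNRNPM) and 1 core snRNP protein (SNRPA). SR proteins thus had 4 of 13 lower (30.8%), hnRNPs 1 of 17 (5.88%), core snRNP proteins 1 of 10 (10%), and U2 factors and PRPF proteins 0 of 12 and 0 of 11. With p alone, 15 of the 63 genes were lower at an unadjusted p under 0.05, 6 of them SR proteins, and 1 was higher, against 2117 of 14217 named genes (14.9%) that were lower. The intensities of the groups did not overlap for 24 of the 63 genes. Of the 63 genes 21 had fasted below fed and 3 had fasted above fed, against 3020 (21.2%) and 819 (5.76%) of 14217 named genes. Most of the 63 genes (61) were brighter than the median probe set. Among the 9198 named genes brighter than it, 11.2% were lower at the thresholds, and 1790 were lower at an unadjusted p under 0.05 from limma. Their groups did not overlap for 2518 of 9198 with fasted below fed and 527 of 9198 with fasted above fed. The shares of the 63 genes lower by p alone, and with fasted below fed, were thus larger than in both backgrounds. These differences in share were not tested. The smallest adjusted p among the 63 genes was 0.167 from limma.

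The median log2 change was -0.46 for SR proteins, -0.13 for hnRNPs, -0.15 for core snRNP proteins, -0.19 for U2 factors and -0.27 for PRPF proteins, beside -0.19 for all named genes. Relative to all probe sets these were -0.26, 0.07, 0.05, 0.01 and -0.07. The SR median stayed negative under the quantile scaling (-0.32) and the 75th-percentile scaling (-0.22), whereas the median of hnRNPs lay at -0.0024 and 0.11 and that of core snRNP proteins at -0.0033 and 0.094. Relative to all probe sets, and over the alternatives that used 1 probe set per gene, the SR median ranged from -0.36 to -0.21. That of hnRNPs ranged from -0.03 to 0.12 and that of core snRNP proteins from -0.06 to 0.21. These ranges leave out the averaging of the probe sets of each gene. With it the medians, not centred in this way, were -0.51 for SR proteins, -0.27 for hnRNPs and -0.15 for core snRNP proteins. The quartiles of SR proteins were -0.78 and 0.04, against -0.27 and -0.0036 for hnRNPs. A difference between families was not tested, since the genes of a family are not replicates.

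**Figure D1:**
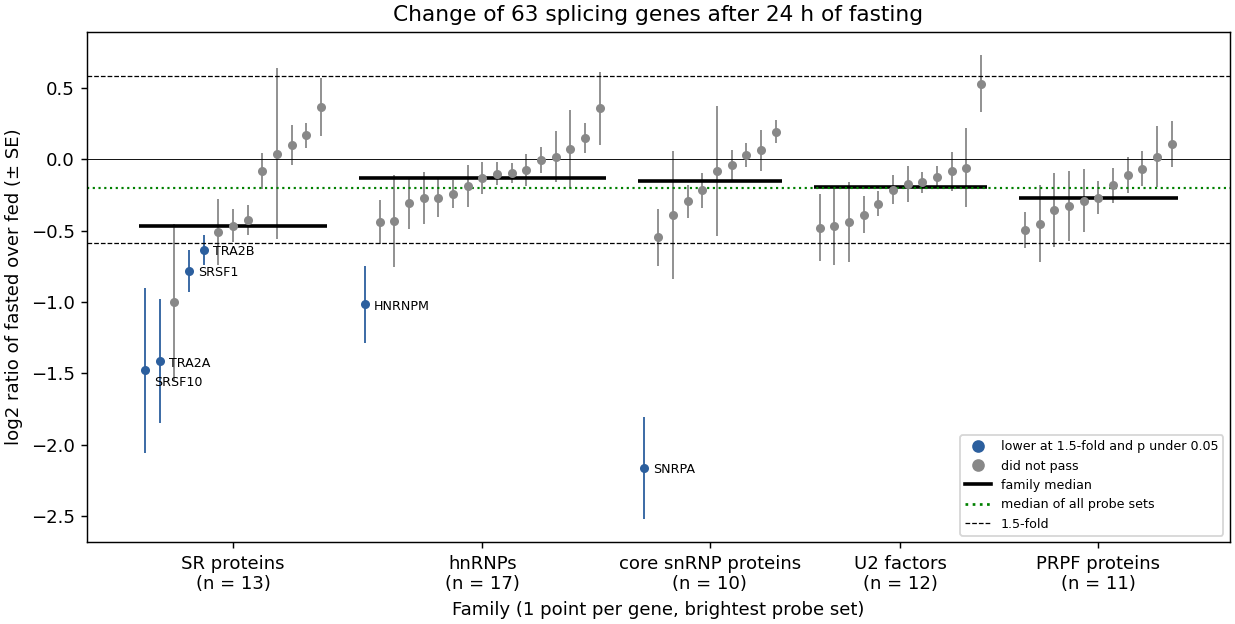
Log2 ratio of fasted over fed (vertical axis, ± standard error) for 63 splicing genes grouped by family, 1 point per gene; blue points passed both thresholds, grey points did not, bars are family medians, the dotted line is the median of all probe sets and dashed lines mark 1.5-fold. Of the 6 blue points 4 are SR proteins, and the bar of SR proteins stands at -0.46, below those of the other families at -0.27 to -0.13; under the 75th-percentile scaling it stands at -0.22, and those of hnRNPs and core snRNP proteins at 0.11 and 0.094.

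On the single arrays, the median of the 13 SR proteins, each centred on its mean over the 6 arrays, was -0.39, 0.01 and -0.06 in fasted rats and 0.24, 0.40 and 0.19 in fed rats (log2, replicates 1, 2 and 3). The groups did not overlap. The hnRNP median was -0.21, -0.06 and 0.01 in fasted rats and 0.03, 0.14 and -0.03 in fed rats, and the groups overlapped. The difference of the 2 medians within an array, which a constant factor on that array leaves as it is, was -0.18, 0.06 and -0.07 in fasted rats and 0.21, 0.26 and 0.22 in fed rats, so that SR proteins stood lower against hnRNPs on each array of fasted rats than on any array of fed rats. From the fitted changes the difference of the family medians was -0.33. It was -0.25 without fasted replicate 1 and -0.24 with the probe sets of each gene averaged. Against core snRNP proteins the SR median was lower by the same comparison, with -0.06, 0.0048 and -0.13 in fasted and 0.13, 0.30 and 0.13 in fed rats. A constant factor cancels in these differences, but a shift that depends on brightness would not. The median of the mean intensities was 209 for SR proteins, 483 for hnRNPs and 203 for core snRNP proteins. The part of brightness in these differences was not tested.

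**Figure D2:**
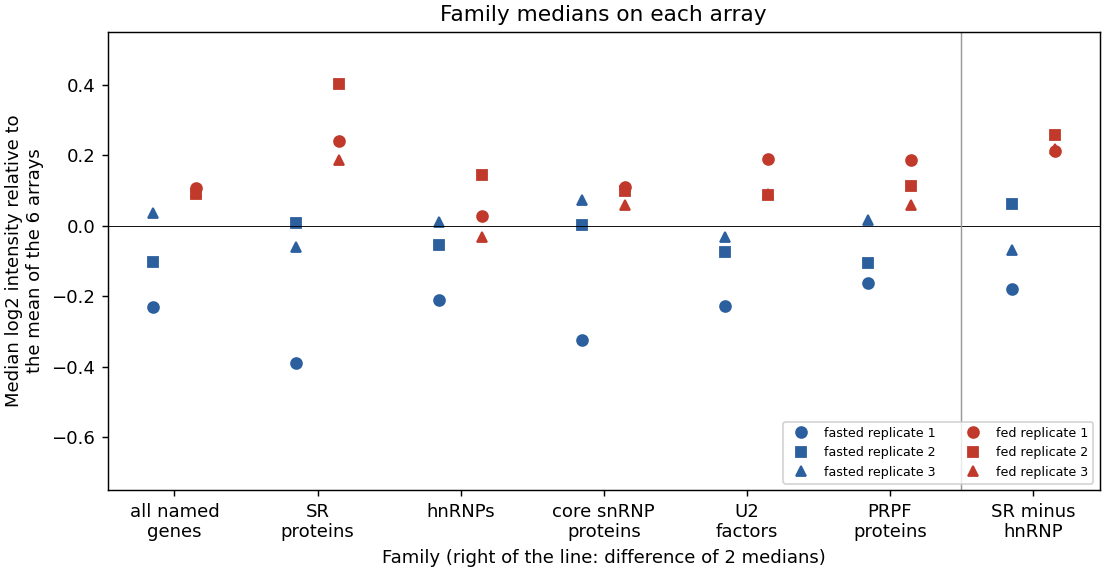
Median log2 intensity of each family on each array relative to the mean of the 6 arrays (vertical axis), with blue fasted to the left of red fed, and circles, squares and triangles for replicates 1, 2 and 3; the column right of the line is the SR median minus the hnRNP median of the same array. For SR proteins the fasted arrays lie at -0.39 to 0.01 and the fed arrays at 0.19 to 0.40, and for the difference at -0.18 to 0.06 and 0.21 to 0.26.

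SRSF1 (also known as SF2/ASF), which promotes the use of 5′ splice sites and takes part in the export and translation of mRNA, measured 151, 204 and 215 in fasted rats, against 332, 325 and 310 in fed rats. The highest fasted array lay well below the lowest fed one. The log2 change was -0.78 (standard error 0.15, unadjusted p = 0.00165, adjusted p = 0.176 from limma), and the second probe set of the gene moved further, with 20.4, 36.6 and 64 in fasted and 97.5, 95.1 and 88.7 in fed rats (log2 change -1.37, also lower at the thresholds). Under the 75th-percentile scaling the log2 change of SRSF1 was -0.54, short of 1.5-fold.

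TRA2B, which binds GAA-rich exonic enhancers, was known to be lower from earlier results of these data, as was SNRPA. TRA2B measured 568, 664 and 566 in fasted rats, against 880, 1030 and 880 in fed rats. All fasted arrays were below all fed ones. The log2 change was -0.63 (standard error 0.11, unadjusted p = 0.000824, adjusted p = 0.167 from limma), and -0.51 and -0.39 under the quantile and 75th-percentile scalings, both short of 1.5-fold. It was also short of 1.5-fold without fed replicate 2 (-0.56) and with arrays weighted by their quality (-0.47), the estimation of which did not converge. Its other probe set gave 280, 360 and 375 in fasted and 464, 577 and 474 in fed rats (log2 change -0.58).

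TRA2A, its paralogue, measured 30, 75.1 and 99.7 in fasted rats and 158, 179 and 151 in fed rats. Fasted replicate 1 was the lowest, and the other fasted arrays were also below each fed array. The log2 change was -1.42 (standard error 0.43, unadjusted p = 0.0164, adjusted p = 0.271 from limma), with the call lost without fed replicate 2 (unadjusted p = 0.0567 from limma). Without fasted replicate 1 it was -0.91. The dimmer probe set gave a log2 change of -0.71 and did not pass.

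SRSF10, which acts mainly as a repressor when it is dephosphorylated, as after heat shock, measured 13, 40.6 and 66 in fasted rats and 86.9, 106 and 81.9 in fed rats. The arrays of fasted rats spread over a wide range, with replicate 1 the lowest, but stayed below those of fed rats. Its log2 change of -1.48 had a standard error of 0.58 (unadjusted p = 0.042, adjusted p = 0.321 from limma), and 9 of the alternatives lost the call, among them the test on linear means (unadjusted p = 0.0587) and the quantile scaling (0.0502). Without fasted replicate 1 it was still lower at the thresholds, with a log2 change of -0.81. None of its 4 other probe sets passed, with log2 changes of -1.06 to -0.41.

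SRSF2 (SC35), known from nuclear speckles, measured 595, 467 and 463 in fasted rats, against 690, 681 and 718 in fed rats. The groups did not overlap, and the log2 change of -0.46 (unadjusted p = 0.00636 from limma) did not reach 1.5-fold and was -0.22 under the 75th-percentile scaling. SRSF6 behaved likewise on its brightest probe set, with 266, 304 and 334 in fasted and 427, 388 and 396 in fed rats (log2 change -0.43, unadjusted p = 0.00686 from limma, and -0.18 under that scaling). Its other 2 probe sets were both lower at the thresholds. The first measured 78.7, 119 and 111 in fasted and 209, 208 and 196 in fed rats (log2 change -1.01, standard error 0.17), and the second had a log2 change of -1.14. SRSF7 measured 10.6, 37 and 42.4 in fasted and 51.1, 61.9 and 42.3 in fed rats (unadjusted p = 0.118 from limma), and SRSF7-PS4 had a log2 change of -0.51, and neither passed. Without fasted replicate 1 these log2 changes were -0.37 for SRSF7 and -0.27 for SRSF7-PS4.

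The remaining SR proteins differed little or in the other direction. SRSF5, the brightest of the family, measured 993, 1247 and 1052 in fasted and 1114, 1312 and 1052 in fed rats, a log2 change of -0.08 that turned to 0.07 and 0.16 under the quantile and 75th-percentile scalings. SRSF9 was the only one with all fasted arrays above all fed ones, with 208, 235 and 222 in fasted and 195, 196 and 199 in fed rats (log2 change 0.17, unadjusted p = 0.0984 from limma, and 0.32 and 0.41 under these scalings). SRSF4 measured 278, 197 and 165 in fasted and 161, 174 and 150 in fed rats (log2 change 0.37, standard error 0.20, and 0.16 without fasted replicate 1), and SRSF11 had a log2 change of 0.10 (standard error 0.14). The only probe set of SRSF3 with a single symbol was dim, at 4.11 to 16.2. Among the left-out probe sets 2 list SRSF3 beside another symbol, so that their signal is not assigned to a gene here. The brighter of these measured 506, 542.5 and 525 in fasted and 668, 632 and 618 in fed rats, without overlap (log2 change -0.29, unadjusted p = 0.00671 from limma). The other measured 24.3, 45.9 and 61.9 in fasted and 86.1, 81.1 and 82.3 in fed rats and was lower at the thresholds (log2 change -1.02, unadjusted p = 0.0244 from limma). SRSF3 thus cannot be read as undetected or level from its dim probe set. Of the 13 SR proteins 6 had non-overlapping groups with fasted below fed, 1 with fasted above fed, and 6 overlapped, against 21.2% and 5.76% of all named genes without overlap. Among the 9198 named genes brighter than the median probe set, the numbers without overlap were 2518 and 527.

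**Figure D3:**
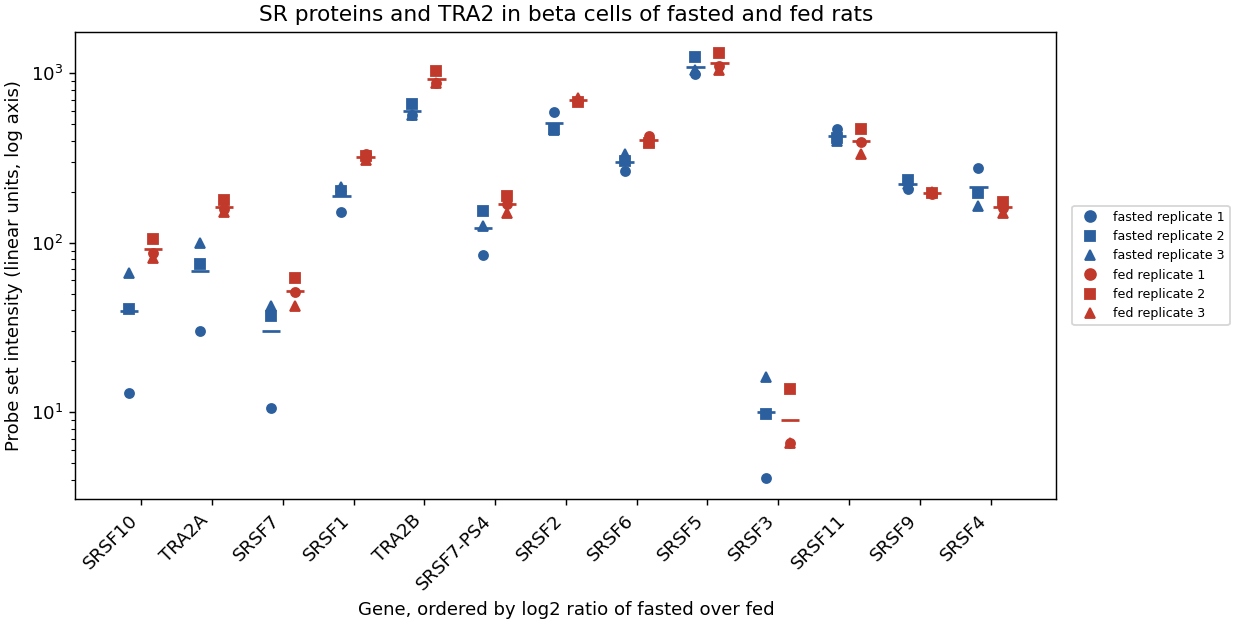
Intensity of the brightest probe set (vertical log axis, linear units) of the 13 SR proteins on each array, ordered by log2 ratio of fasted over fed; blue fasted arrays stand left of red fed arrays, with a marker shape for each replicate number and lines for group means. TRA2B lies at 566 to 664 in fasted and 880 to 1030 in fed rats, and SRSF5 at 993 to 1247 and 1052 to 1312.

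The count of 4 lower SR proteins was also 4 without any single fasted replicate (with SRSF7-PS4 in place of SRSF10 without replicate 2), and 3, 1 and 3 without fed replicates 1, 2 and 3, where SRSF1 was the 1 that stayed without fed replicate 2. It was 2 under the quantile scaling (SRSF1 and TRA2A, with 5.12% of all named genes lower) and 2 under the 75th-percentile scaling (SRSF10 and TRA2A, with 4.49%). A gene counted as lower on any of its probe sets gave 5 of 13 SR proteins, with SRSF6 added.

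The promoters of SRSF1, TRA2B and SNRPA, which were called lower, and of SRSF9, with all fasted arrays above all fed ones, are shown so that members with opposite order of the groups can be compared. They come from RefSeq (rat build GRCr8), as windows around the start of the gene that lie mostly upstream. Windows were held for 58 of the 63 genes, 11 of them SR proteins. Capitals mark matches to a CRE, an E-box, an ETS core, a CCAAT box and a YY1 motif, searched on both strands with the letters given below. SRSF1 and SNRPA show CCAAT boxes, 2 of those of SNRPA overlapping on opposite strands. The windows are at chr10:73336248-73336547 (+ strand), chr11:92293192-92293491 (+ strand), chr1:91617993-91618292 (- strand) and chr12:46945098-46945397 (- strand).
SRSF1: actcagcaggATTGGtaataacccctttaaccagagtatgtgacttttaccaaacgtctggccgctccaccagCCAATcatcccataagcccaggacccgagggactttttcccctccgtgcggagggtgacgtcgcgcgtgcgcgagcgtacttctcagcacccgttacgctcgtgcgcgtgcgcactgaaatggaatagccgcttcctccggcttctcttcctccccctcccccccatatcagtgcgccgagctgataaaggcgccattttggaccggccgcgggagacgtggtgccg
TRA2B: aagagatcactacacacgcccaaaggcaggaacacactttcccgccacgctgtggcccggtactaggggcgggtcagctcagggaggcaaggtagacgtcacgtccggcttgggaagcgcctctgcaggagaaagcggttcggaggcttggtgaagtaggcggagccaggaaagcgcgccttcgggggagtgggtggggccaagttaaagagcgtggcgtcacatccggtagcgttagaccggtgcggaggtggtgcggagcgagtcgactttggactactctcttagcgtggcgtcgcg
SNRPA: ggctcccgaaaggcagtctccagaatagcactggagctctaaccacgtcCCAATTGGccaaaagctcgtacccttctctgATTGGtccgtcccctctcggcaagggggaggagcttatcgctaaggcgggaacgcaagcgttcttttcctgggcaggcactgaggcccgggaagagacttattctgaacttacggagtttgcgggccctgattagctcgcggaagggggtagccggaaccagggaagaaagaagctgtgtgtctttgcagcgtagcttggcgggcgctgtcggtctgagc
SRSF9: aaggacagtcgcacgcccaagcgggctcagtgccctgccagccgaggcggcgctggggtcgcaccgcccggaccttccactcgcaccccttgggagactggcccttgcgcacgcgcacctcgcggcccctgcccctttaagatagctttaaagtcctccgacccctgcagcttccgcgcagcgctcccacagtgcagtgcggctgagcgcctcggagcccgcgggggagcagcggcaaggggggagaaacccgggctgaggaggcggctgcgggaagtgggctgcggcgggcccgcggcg
The windows of TRA2B and SRSF9 held none of the 5 motifs. A CCAAT box (the letters of its name) was found in 31 of the 58 windows (53.4%), against 37.5% of all 33469 promoter windows, and in 4 of 11 SR windows (SRSF1, SRSF2, SRSF3 and SRSF10). An ETS core (CCGGAAG) was found in 17 of 58 (29.3%, against 8.75% of all windows) and in 4 of 11 SR windows, those of SRSF4, SRSF5, SRSF7 and SRSF11. An E-box (CACGTG), in the SR proteins only that of SRSF3, was found in 8 of 58 (13.8%, against 6.42%). A CRE (TGACGTCA) was found in 1 (1.72%, against 1.83%). A YY1 motif (AAGATGGCG) was found in 2 (3.45%, against 1.73%). The 33469 windows were not limited to genes on the array or to genes as bright as the members. Whether the shares of the members differ from those of equally bright genes was not tested. A match of letters is not a binding site.

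SNRPA, which binds a stem loop of the U1 snRNA in the particle that recognises the 5′ splice site, measured 12.3, 7.81 and 15.9 in fasted rats, against 63.7, 51.4 and 41.9 in fed rats. The groups lay far apart, but the fasted values were below the mean intensity of the median probe set (20.2). The log2 change was -2.16 (standard error 0.36, unadjusted p = 0.000797, adjusted p = 0.167 from limma). SNRPA had a single probe set and was called lower under each of the alternatives, as was HNRNPM. Of the other 9 core snRNP proteins none was called. SNRPN entered with a dim probe set, while left-out probe sets that list SNRPN beside SNURF were far brighter. The brightest of these measured 573, 583 and 584 in fasted and 615, 648 and 721 in fed rats, without overlap (log2 change -0.19). Another had a log2 change of -0.29 with overlap. SNRPN thus cannot be read as undetected or level from its dim probe set. The Sm proteins SNRPD1 and SNRPD2, parts of the ring common to the snRNPs, were lower at p under 0.05 with log2 changes of -0.55 and -0.29 from limma, and both had all fasted arrays below all fed ones. SNRPD1 measured 74.6, 119 and 112 in fasted and 156, 136 and 146 in fed rats, and it passed 1.5-fold without fasted replicate 2 or 3 (log2 change -0.67 and -0.63), but it was -0.34 without fasted replicate 1 and -0.35 and -0.30 under the quantile and 75th-percentile scalings. SNRPD2 had -0.17 and -0.05 under these scalings. The Sm protein SNRPE went the other way, with 500, 478 and 483 in fasted and 435, 450 and 395 in fed rats, without overlap (log2 change 0.19, standard error 0.08, unadjusted p = 0.0509 from limma), and 0.32 and 0.44 under the 2 scalings. Members of 1 ring thus had values in both directions.

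HNRNPM, which binds GU-rich sequences, measured 64.6, 94.8 and 139 in fasted rats and 188, 191 and 195 in fed rats. The fed arrays lay close together, while the fasted ones were spread out below them. The log2 change was -1.01 (standard error 0.27, unadjusted p = 0.00888, adjusted p = 0.237 from limma). The other 16 hnRNPs did not pass. HNRNPA2B1 and HNRNPH1, abundant binders of exonic and intronic silencers, were lower at p under 0.05 but short of 1.5-fold. HNRNPA2B1 measured 489, 671 and 697 in fasted and 813, 904 and 773 in fed rats (log2 change -0.44, unadjusted p = 0.0278 from limma), and HNRNPH1 748, 856 and 782 in fasted and 948, 1031 and 854 in fed rats (log2 change -0.25, unadjusted p = 0.0448 from limma), with overlap in HNRNPH1. Under the quantile and 75th-percentile scalings HNRNPA2B1 had log2 changes of -0.29 and -0.19 and HNRNPH1 of -0.12 and -0.0021, with no p under 0.05, and HNRNPA2B1 had -0.28 without fasted replicate 1. The brightest hnRNPs did not pass in either direction. HNRNPA0 measured 891, 925 and 869 in fasted and 866, 999 and 835 in fed rats, with a log2 change of -0.0036 that was 0.13 and 0.24 after the 2 scalings, and HNRNPDL 964, 958 and 894 in fasted and 793, 971 and 784 in fed rats (log2 change 0.15, standard error 0.10). HNRNPDL had log2 changes of 0.30 and 0.39 under the 2 scalings (unadjusted p = 0.0449 and 0.0456 from limma), but -0.29 over the mean of its 3 probe sets, whose dimmer ones had -0.37 and -0.65. Of the 17 hnRNPs 13 had a negative and 4 a positive log2 change, from -1.01 to 0.36, and 7 lay below the median of all probe sets.

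No U2 factor was called. A negative log2 change was found in 11 of 12, from -0.48 upwards. The share was 67% for all named genes and 71.6% for those brighter than the median probe set. Only 6 of 12 lay below the median of all probe sets, and the family median was 0.01 above it. The gene with a positive log2 change was SF3B4, a subunit that contacts the pre-mRNA near the branch site, with 196, 195 and 123 in fasted and 113, 122 and 114 in fed rats. Fasted replicates 1 and 2 were high and replicate 3 lay just above the fed arrays. The log2 change was 0.53 (standard error 0.20, unadjusted p = 0.0372, adjusted p = 0.312 from limma), and it passed 1.5-fold under the quantile scaling (0.69) and the 75th-percentile scaling (0.77), with array weights (0.74, from an estimate that did not converge) and without fasted replicate 3 (0.75). U2AF1, which reads the AG at the end of the intron, measured 176, 185 and 188 in fasted and 236, 229 and 216 in fed rats (log2 change -0.31, unadjusted p = 0.0103 from limma). The groups did not overlap. SF3A2, of the U2 particle, changed by -0.39 on the log2 scale (unadjusted p = 0.024 from limma). Under the quantile and 75th-percentile scalings the log2 changes were -0.17 and -0.07 for U2AF1 and -0.19 and -0.14 for SF3A2, with no p under 0.05. The brightest U2 factors, SF3B1 and U2AF2, had log2 changes of -0.12 and -0.17, which turned to 0.12 and 0.07 under the 75th-percentile scaling.

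Of the 11 PRPF proteins 9 had a negative log2 change, against 67% of all named genes and 71.6% of those brighter than the median probe set. Below the median of all probe sets lay 6 of 11. The log2 changes ran from -0.50 to 0.11 over the family. PRPF3, of the U4/U6 particle, measured 58.5, 61.4 and 58 in fasted rats, against 80.8, 79.5 and 90.9 in fed rats. All fasted arrays lay below all fed ones, and the log2 change of -0.50 (standard error 0.13, unadjusted p = 0.0079, adjusted p = 0.23 from limma) fell short of 1.5-fold. It was -0.26 and -0.25 under the quantile and 75th-percentile scalings, and -0.18 over the mean of its 3 probe sets, of which the dimmer ones had log2 changes of -0.017 and -0.031. PRPF8, which holds the catalytic centre, and PRPF19, a ubiquitin ligase of the activated spliceosome, were the brightest, with log2 changes of -0.11 (standard error 0.13) and -0.07 (standard error 0.12), which were 0.14 and 0.18 under the 75th-percentile scaling. PRPF4B, a kinase that phosphorylates PRPF proteins, also differed between its 4 probe sets. The brightest measured 66, 91.5 and 117 in fasted and 115, 105 and 107 in fed rats (log2 change -0.29, and -0.07 without fasted replicate 1), while a dimmer one measured 10.1, 14.9 and 25.6 in fasted and 65, 79.2 and 45.4 in fed rats (log2 change -1.97, unadjusted p = 0.00273 from limma).

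Such differences within a gene were found in other members. Of the 63 genes 23 had more than 1 probe set, with 41 probe sets besides the brightest, and 25 of these 41 (61%) had a more negative log2 change than the brightest of the gene, against 56.9% of 6609 such probe sets over all named genes. Their median intensity was 58.9, against 256 for the brightest ones. By family the number was 4 of 11 for SR proteins, 11 of 14 for hnRNPs and 6 of 8 for PRPF proteins. HNRNPH3 was lower at the thresholds only on its dimmer probe set, with 34.6, 48.4 and 55.4 in fasted and 77, 87.9 and 66.8 in fed rats (log2 change -0.76, against -0.19 on the brightest), and HNRNPA2B1 on 1 of 3 dimmer ones (-0.68). Counting a gene as lower on any probe set, 10 of the 63 genes were lower, and 12 of all 104 probe sets (11.5%), against 8.43% of all probe sets. Which part of a transcript each probe set covers was not analysed here.

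**Figure D4:**
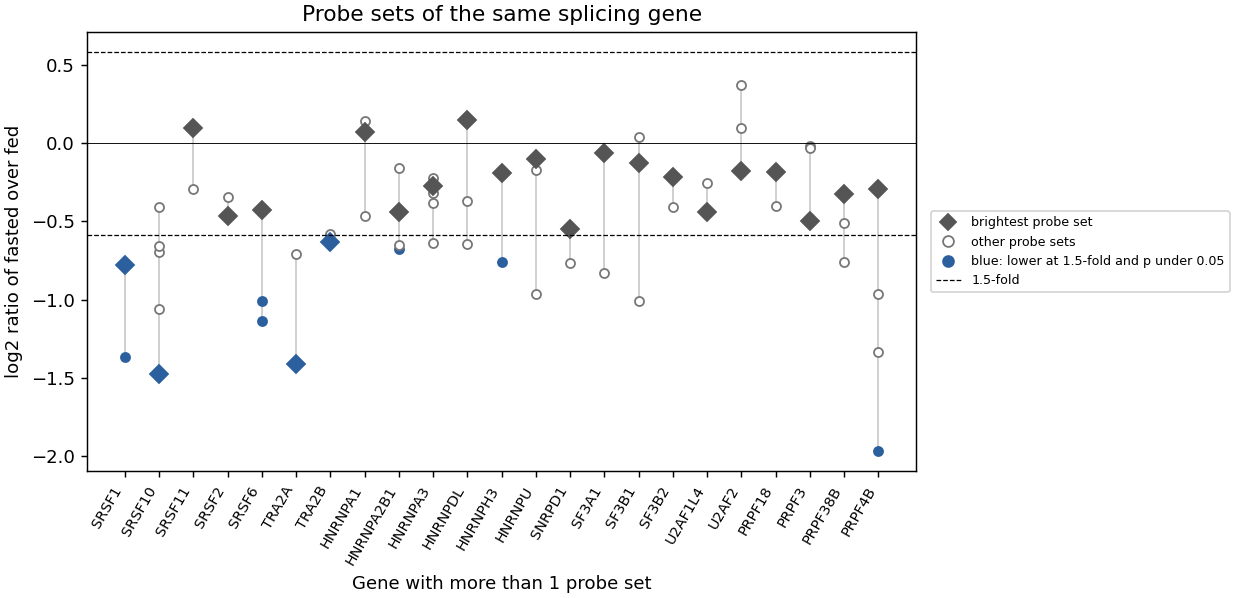
Log2 ratio of fasted over fed (vertical axis) of each probe set of the 23 splicing genes with more than 1; diamonds are the brightest probe set, circles the others, blue marks those past both thresholds, and dashed lines mark 1.5-fold. Both probe sets of SRSF1 are blue (-0.78 and -1.37), while PRPF4B runs from -0.29 to -1.97.

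Fasted replicate 1 was the lowest of the 6 arrays for 35 of the 63 genes (55.6%), against 50.7% of the named genes brighter than the median probe set. Without it the 6 genes lower at the thresholds were the same 6, while the share of all named genes that were lower was 6.03%. Without fasted replicate 3 there were 10 lower and 1 higher (SF3B4), with 18.7% of all named genes lower, and without fed replicate 2 there were 3 lower, HNRNPM, SNRPA and SRSF1, with 7.81%. The median of the core snRNP proteins turned to 0.04 without fasted replicate 1, and that of SR proteins was -0.34.

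Further genes of splicing were taken from 10 lists of spliceosome, cofactor and regulator genes, which share 182 measured genes of 201. Of these 16 were lower (8.79%) and 2 higher at the thresholds, with a median log2 change of -0.21, against 9.51% lower, 2.29% higher and a median of -0.19 over all named genes. LSM8, a protein of the ring on U6 snRNA, measured 156, 157 and 182 in fasted and 351, 296 and 299 in fed rats (log2 change -0.93, unadjusted p = 0.000153, adjusted p = 0.155 from limma). DDX39B (UAP56), a helicase of early spliceosome assembly and mRNA export, measured 233, 236 and 260 in fasted and 405, 369 and 441 in fed rats (log2 change -0.74, unadjusted p = 0.000272, adjusted p = 0.155 from limma). In both the groups lay far apart on all arrays. Of 12 spliceosomal helicases 3 were lower and 0 higher (median -0.44), the others being DHX16 (-0.81) and DDX41 (-0.59). Fasted replicate 1 was the lowest array for 10 of these 12 (83.3%), against 93 of the 182 genes (51.1%). For the genes of the 10 lists no values without that array or under the 2 scalings are given, so that their calls were checked less than those of the members. Of 9 LSM proteins 2 were lower, LSM8 and LSM2 (-0.71), and 1 was higher (median -0.39), LSM3, with 202, 172 and 114 in fasted and 89.2, 102.5 and 103.8 in fed rats (0.69). Of 9 kinases and transport factors of SR proteins 1 was lower, CLK2, a kinase that phosphorylates SR proteins and moves them out of speckles. CLK2 measured 40, 44.2 and 74.6 in fasted and 120, 101.3 and 99.9 in fed rats (log2 change -1.07, unadjusted p = 0.00586, adjusted p = 0.219 from limma). Of 26 hnRNPs under other gene names 1 was lower, RBM14 (-0.84, list median -0.16), and of 26 proteins of the Prp19 complex and the catalytic steps 0 were called (median -0.17). Of 31 tissue-specific regulators 3 were lower, RBM10 (-0.69), ELAVL4 (-0.74) and RBM38 (-0.85), and 1 was higher, KHDRBS2, from a dim probe set (means of 8.99 in fasted and 2.75 in fed rats, list median -0.10). Of the snRNP-specific proteins 1 of 23 was lower, SUGP1 (-0.63), and of the minor spliceosome proteins 1 of 7, RNPC3 (-1.33). Of exon junction and cofactor proteins 2 of 24 were lower, THOC1 (-0.61) and MAGOH (-0.63), and of the SMN complex, which assembles snRNPs, 2 of 15, GEMIN8 (-0.62) and GEMIN2 (-0.99), with 0 higher in these 4 lists.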

How the data were processed

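Of the 6 Affymetrix arrays (3 of fasted and 3 of fed rats, groups from the labels), the authors used dChip to normalize to the array of median brightness, subtract mismatch background and compute model-based values, and deposited these as linear intensity per probe set (dChip's version is not given in the sources used here). RNA of all isolates was extracted together, with a RIN of at least 8 per the labels. Left out of the tests were 57 control probe sets. A floor at the 10th percentile (3.27) was set, and limma 3.58.1 was run on the log2 scale (lmFit, eBayes with intensity trend) in R 4.3.3, with Benjamini-Hochberg adjustment over 31042 probe sets, on the unpaired groups. Of these, 20826 carried 1 gene symbol, 436 several and 9780 none, and all 63 members matched the RefSeq gene table by gene number with 0 symbols changed. The fit was tested on simulated data. No detection calls, scan dates or array coordinates were used.

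The members, lists, motifs and tests were chosen with earlier results of these data known. Named were up to 8 members of a family past both thresholds, its 2 brightest and those whose probe sets differed in call, up to 3 called genes of each further list, and, chosen after their values were seen, all SR proteins, the members with an unadjusted p under 0.05, SNRPN, KHDRBS2 and the single markers of other cells. Alternatives were the test on linear means with unequal variances, a brightness filter, another floor (25th percentile, 7.53), a pseudocount, 2 scalings, no trend, robust variance, array weights, a replicate block, leaving out each replicate, the mean of all probe sets and, chosen after the data were seen, any probe set of a gene. matplotlib 3.10.9 under Python 3.11.15 drew the figures. The few arrays limit the precision.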

Additional observations from a re-analysis of the deposited data

Results flagged for a closer look

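The control probe set for 5S ribosomal RNA, which enters no comparison, measured 117, 59.8 and 71.8 on the arrays of fasted rats and 33.4, 43.3 and 37.7 on those of fed rats. Each fasted array lay above each fed one, and the ratio of the means was 2.18. Of the 57 control probe sets it was the only one with this order, and 10 had the opposite order. Among these 10 were probe sets for the added BioB and BioC controls, with ratios of 0.80 to 0.85. The GAPDH probe sets were also among them, with 0.64 to 0.69. Other BioB and BioC probe sets overlapped between the groups, and what sets these ratios was not tested. No group had enough arrays to look for a single outlying value.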

How the results depend on the processing

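With 3 arrays per group and no detection calls, values from dim probe sets, such as those used for SRSF3 and SNRPA, are the least certain. After quantile normalization 1501 probe sets were lower and 1275 higher (54.1% of the calls lower, against 78% with the values as deposited), with 2 SR proteins lower, 1 member higher, and medians of -0.054 for the members and -0.0024 for hnRNPs. After scaling to the 75th percentile these were 1330 and 1428 (48.2%), 2 and 1, with medians of 0.031 for the members, -0.22 for SR proteins, 0.11 for hnRNPs and 0.094 for core snRNP proteins. The test on linear means gave 1625 lower and 269 higher, the brightness filter 379 higher, the floor at the 25th percentile 419 higher, and array weights, whose estimation stopped before it converged, 6956 and 2469, with 1 member higher. The mean of all probe sets moved the hnRNP median to -0.27 and the SR minus hnRNP difference to -0.24, and counting any probe set gave 10 lower members. Leaving out 1 replicate gave 1448 to 5562 lower and 472 to 1536 higher probe sets, 3 to 10 members lower and 0 to 1 higher, 1 to 4 SR proteins lower, and a core snRNP median of -0.26 to 0.036. At an adjusted p under 0.05 from limma, 2 members were lower with the brightness filter, 1 with a pseudocount, 1 with robust variance and 19 with array weights, of 113, 75, 80 and 7518 lower probe sets, and 0 with the other fits. The counts with array weights rest on that unconverged estimate.

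Of 543 values of 32 single members under the alternatives, 492 kept their direction and side of the thresholds, 15 lost and 9 gained a call, and 27 changed sign, none of them of a called gene. After quantile normalization these were HNRNPA0 (0.13), PRPF19 (0.059), PRPF8 (0.014), SF3B1 (0.025) and SRSF5 (0.066). After scaling to the 75th percentile they were HNRNPA0 (0.24), HNRNPH3 (0.057), PRPF19 (0.18), PRPF8 (0.14), SF3B1 (0.12), SRSF5 (0.16) and U2AF2 (0.071), and with array weights HNRNPA0 (0.062), PRPF8 (0.10) and SRSF5 (0.12). With the mean of all probe sets they were HNRNPDL (-0.29), SRSF11 (-0.10) and U2AF2 (0.10). Without 1 replicate HNRNPA0 ranged from -0.056 to 0.074, PRPF19 from -0.14 to 0.063, SRSF11 from -0.021 to 0.22, SRSF3 from -0.41 to 0.58 and SRSF5 from -0.18 to 0.012. The cause of these changes was not tested.

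The deviations of same-numbered arrays from their group means correlated at 0.00012, 0.0107 and -0.0531, so that no shared shift by replicate number was seen. Whether same-numbered isolates were prepared together cannot be told from these correlations. With the replicate number as a block 2046 probe sets were lower and 644 higher, and the members lower remained 6, the SR proteins lower 4, with the same medians.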
